A study of Caenorhabditis elegans with 64 samples.

Results

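mRNA of wild-type *C. elegans* kept at 25°C for 10 generations was compared with mRNA of wild-type animals in generation 1 at 25°C. The comparison rests on 6 libraries, 3 of generation 10 and 3 of generation 1, out of 30 mRNA libraries and 64 libraries in the whole series, and they were chosen by genotype, temperature and generation as the sample labels give them. Both groups were N2, the standard laboratory strain of this self-fertile nematode, with no added allele, transgene or agent, and both were whole animals labelled as day 1 adults. Each library was made from a large pool of animals that had been synchronized as L1 larvae and harvested as adults at a set time, with poly(A) RNA selected before sequencing. The 3 libraries of a group are described as biological replicates, and the sources do not say whether their cultures were kept apart over the generations. Generations 1 and 10 were separate growths, so an effect of generation and a difference between growths cannot be told apart. The other groups drawn on were wild-type at 20°C, wild-type in generations 2 and 7 at 25°C, and *simr-1(cmp36)* mutants in generations 1 and 10 at 25°C, with 3 libraries each. In the study the wild-type series was grown beside *simr-1*, a mutant of a Tudor domain protein of the small RNA pathway, as its control.

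A young adult hermaphrodite is largely a gonad that turns from sperm to oocyte production, so mRNAs of oocytes make up much of what a whole animal yields. The intestine makes yolk proteins and exports them to the growing oocytes, digests food, stores fat and carries much of the immune defence. The hypodermis makes the collagens of the cuticle, with bursts of collagen mRNA around each larval molt. At 25°C worms grow faster than at 20°C, and heat and food shortage raise chaperones and lipases respectively.

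Total counts lay between 14917388 and 19110834 in the libraries of generation 1 and between 15087722 and 18380045 in those of generation 10. Across 12728 genes, log levels of libraries of the same generation correlated at 0.9943 to 0.996 and those of different generations at 0.8985 to 0.9179. Marker genes of every major tissue were read in both groups, with neuronal genes (10 genes, none called) at a summed level of 343 to 358 CPM in generation 1 and 307 to 318 CPM in generation 10. CPM is the usual depth-scaled count unit, here with TMM factors over the 30 mRNA libraries. Fold changes and calls used TMM factors over the compared libraries only, so ratios of printed CPM can differ slightly from them. The adult collagen *col-19* was present in every library, at 107 to 139 CPM in generation 1 and 217 to 275 CPM in generation 10, and at a mean of 588 CPM at 20°C. The 3 adult hypodermis markers tested, *col-19* among them, had a mean sum of 785.9 CPM in generation 2 and 711.9 CPM in generation 7. In generations 1 and 10 that sum was 123.9 and 244.3 CPM. Since whole animals were used, a change in the number of cells of a type, or in the stage the pool had reached, and a change in RNA per cell cannot be told apart.

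Where the other groups lay differed between the genes that fell and those that rose. Each called gene was placed on a scale from its level in generation 1 to its level in generation 10. Of 2363 genes that fell, 89.7% were nearer to the generation 10 level in wild-type at 20°C, 92.0% in wild-type generation 7, 90.9% in *simr-1* generation 1 and 94.5% in *simr-1* generation 10, but only 17.9% in wild-type generation 2. Among these groups the generation 2 libraries alone were thus nearer to generation 1 for most of the genes that fell. Of 2692 genes that rose, 34.6% were nearer to generation 10 at 20°C, 30.7% in generation 2, 37.6% in generation 7, 31.9% in *simr-1* generation 1 and 69.7% in *simr-1* generation 10. In each other wild-type group most of the genes that rose were thus nearer to the level of generation 1.

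The quasi-likelihood test of edgeR was run on 17127 genes. A gene was called where its levels differed by 2-fold or more and its p, adjusted after Benjamini and Hochberg over all of these genes, did not exceed 0.05. At generation 10, 2838 genes were higher (16.6%) and 2489 were lower (14.5%), so that 31.1% of the transcriptome was called. The median size of a called change was 1.77 on the log2 scale for genes that rose and -1.57 for genes that fell. The share of calls that were higher, 53.3%, became 63.9% when libraries were scaled by size alone, which moved the median of all genes from 0.04 to 0.22, so small changes in one direction depend on the scaling. All 3 generation 10 libraries were above all 3 generation 1 libraries for 6817 genes (39.8%) and below them for 5213 (30.4%). Genes between 1 and 10 CPM were called most often, with 26.5% higher and 21% lower, and genes above 100 CPM least often, with 8.03% higher and 11.1% lower.

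**Figure D1:**
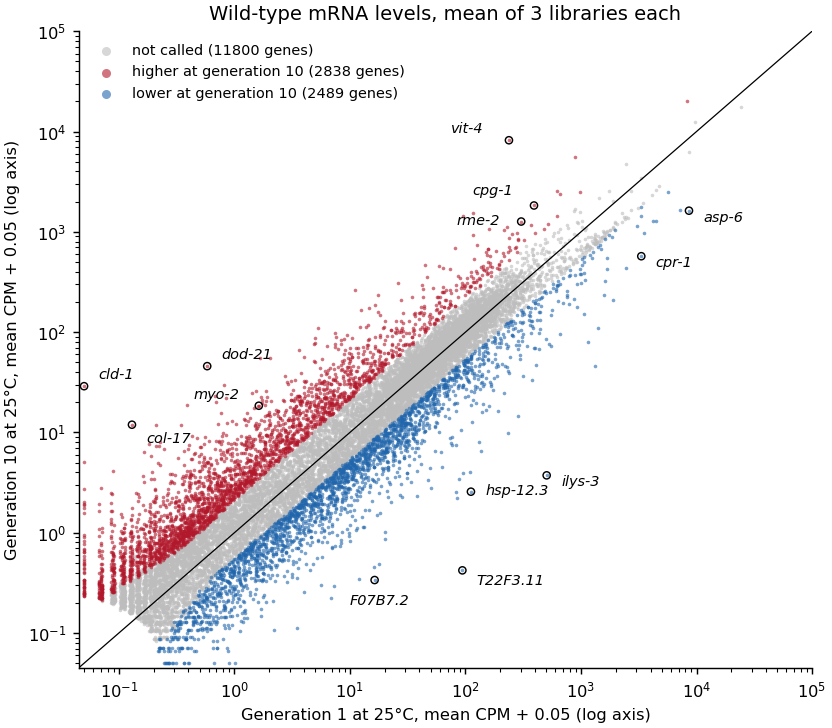
Mean level of each tested gene in wild-type generation 1 (horizontal) and generation 10 (vertical), in CPM with 0.05 added on log axes, where each point is 1 gene and the line marks equal levels. The 2838 genes that rose and the 2489 that fell spread over the whole range of levels, with *cld-1* at the left edge (0 in all generation 1 libraries) and *ilys-3* and T22F3.11 far below the line.

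The largest rise was at *cld-1*. It had no count in the 3 generation 1 libraries and 32.7, 25.6 and 28.2 CPM in the 3 generation 10 libraries, at least 495-fold higher against a floor of 3 counts over the group. It lies at chrIV:12935011-12936271 on the minus strand, and its neighbour *dod-21* (chrIV:12936738-12937988, plus strand), named for acting downstream of the insulin-regulated factor DAF-16, starts on the other side of a short shared gap. *dod-21* was at 0.524, 0.891 and 0.179 CPM in generation 1 and at 40.8, 47.6 and 48.9 CPM in generation 10, a log2 fold change of 6.32 ± 0.20 (SE, edgeR adjusted p = 9.1e-13). No library of one generation overlapped the other for either gene. Other genes of this stretch, picked after their values were seen, also rose: *dod-24* went from 9.51 to 13.2 CPM to between 56.1 and 66.5 CPM, C32H11.4 from 2.36 to 3.2 CPM to between 30.7 and 46 CPM, and *dct-19* from no count to between 0.486 and 1.11 CPM, at least 13.3-fold higher. In *simr-1* the same generations also differed at *cld-1* (0.763 against 11.2 CPM on average) and *dod-21* (2.72 against 19.2 CPM).

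The start regions of *cld-1* and *dod-21* are printed because these 2 neighbours share the space between them and rose together from close to nothing. Each run is 250 bases before to 50 bases after the annotated start (RefSeq, WBcel235), in the gene's own direction, and capitals mark TGATAA on either strand, a sequence that intestinal GATA factors can bind.
cld-1, chrIV:12936208-12936507, minus strand: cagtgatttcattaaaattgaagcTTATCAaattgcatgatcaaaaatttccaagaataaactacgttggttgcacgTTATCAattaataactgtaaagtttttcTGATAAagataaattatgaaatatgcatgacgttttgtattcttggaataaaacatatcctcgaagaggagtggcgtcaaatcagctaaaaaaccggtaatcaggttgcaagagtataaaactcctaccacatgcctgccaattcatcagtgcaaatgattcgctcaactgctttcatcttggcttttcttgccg
dod-21, chrIV:12936488-12936787, plus strand: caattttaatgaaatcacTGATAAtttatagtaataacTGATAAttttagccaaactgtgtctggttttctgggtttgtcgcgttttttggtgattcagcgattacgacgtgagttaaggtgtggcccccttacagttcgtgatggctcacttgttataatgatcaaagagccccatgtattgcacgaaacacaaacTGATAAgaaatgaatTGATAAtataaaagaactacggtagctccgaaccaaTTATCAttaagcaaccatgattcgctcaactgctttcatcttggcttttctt
TGATAA occurred 3 times in the first run and 5 times in the second. The longest stretch the 2 runs share is 36 bases at their downstream ends, so the genes are near copies there and reads could be split between them by the counting.

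GATA sites of this kind were not rare. TGATAA lay in the 300-base window of 30.7% of the genes that rose, 40.3% of those that fell and 30.4% of all 17042 tested genes with a window. AGATAA lay in 22.6%, 20.3% and 21.3%. The heat shock element TTCNNGAA lay in 17.5% of the genes that rose, 16.9% of those that fell and 18.9% of all, and GTAAACA, which DAF-16 binds, in 4.53%, 5.97% and 4.84%. Only TGATAA among genes that fell stood more than 5 percentage points from the share of all genes, and both strands were searched in each case. These are descriptions of letters in a window with no test.

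The other genes with the largest rises were mostly at or near 0 in generation 1. The cuticle collagen *col-41* had no count in generation 1 and 4.13, 5.24 and 5.59 CPM in generation 10, at least 85.6-fold higher, and overlaps *ucr-2.2* on the opposite strand. The alpha-tubulin *tba-8* had no count and then 2.61, 2.72 and 2.76 CPM (at least 46.3-fold), and K08F4.13, Y105C5B.3, the hedgehog-related *grd-4* and the acyltransferase-like *oac-32* likewise rose from no count by at least 33.9-fold, 32.4-fold, 29.7-fold and 26.4-fold. *col-17* rose from 0.0524, 0.127 and 0.0598 CPM to 7.71, 16.7 and 11.2 CPM, with a log2 fold change of 7.04 ± 0.46 (edgeR adjusted p = 1.97e-09). These genes were low in the other wild-type groups as well, as *col-17* shows with means of 0.401 CPM at 20°C, 0.205 CPM in generation 2 and 0.304 CPM in generation 7. An exception was Y48E1B.8, which went from 0.105, 0.191 and 0.179 CPM to 8.93, 9.07 and 17.4 CPM but was already at 18.6 CPM at 20°C.

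The largest fall was at T22F3.11, from 84.8, 104 and 93.7 CPM to 0.304, 0.504 and 0.307 CPM, with a log2 fold change of -8.04 ± 0.16 (edgeR adjusted p = 2.07e-14). It was already low in generation 2, at 1.52, 1.28 and 0.393 CPM, and at 22.7 CPM on average in *simr-1* generation 1. *ilys-3*, an invertebrate-type lysozyme that digests bacterial cell walls, fell from 519, 526 and 469 CPM to 6.13, 3.07 and 1.84 CPM, a log2 fold change of -7.22 ± 0.18. It was at 0.181 CPM at 20°C, between 299 and 1072 CPM in generation 2 and at 3.56 CPM on average in generation 7. The P450 *cyp-13A7* fell from 87.5, 76.6 and 82 CPM to 3.58, 2.12 and 1.84 CPM, and in *simr-1* from 80.1 to 1.38 CPM on average. Its generation 2 libraries disagreed, with 3.59, 139 and 192 CPM. F07B7.2 stood out in another way: it fell from 15.4, 18.1 and 15.4 CPM to 0.304, 0.252 and 0.307 CPM in wild-type, was at 12.7 CPM at 20°C, and rose in *simr-1* from 1.25 to 14 CPM on average.

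**Figure D2:**
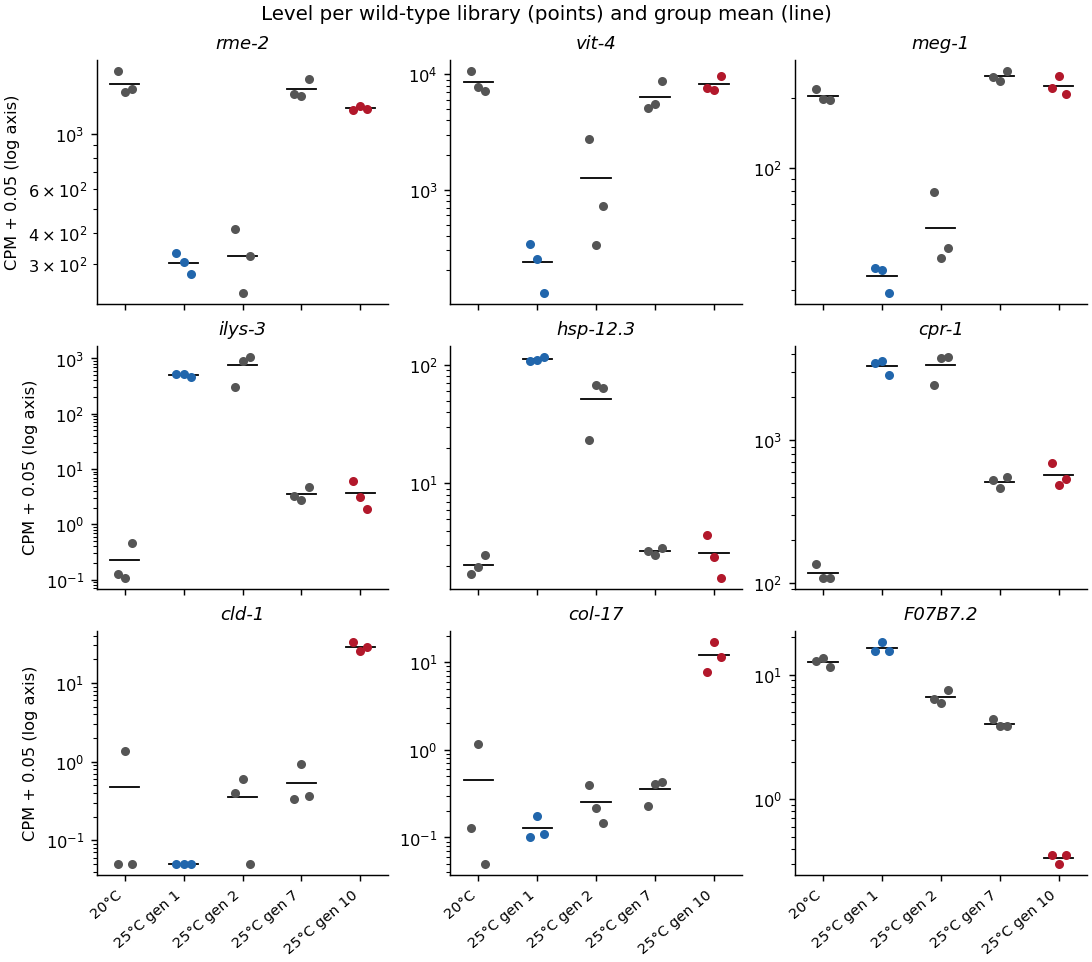
CPM plus 0.05 on log axes for 9 genes in the 5 wild-type groups, with 1 point per library (3 per group) and a line at the group mean. *rme-2* and *meg-1* were low in generations 1 and 2 and high elsewhere, *vit-4* was lowest in generation 1 and spread widely in generation 2, *ilys-3*, *hsp-12.3* and *cpr-1* were high in generations 1 and 2 only, *cld-1* and *col-17* were high in generation 10 only, and F07B7.2 was low in generation 10 only.

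Oocyte genes rose together. Of 27 genes of oocytes and the eggshell, 22 were higher and none was lower (81.5%, against 16.6% of all genes), with a median log2 fold change of 1.58. Their summed level was 6932, 6422 and 5858 CPM in generation 1 and 20660, 20880 and 20270 CPM in generation 10. Their mean sum was 22110 CPM at 20°C, 7352 CPM in generation 2 and 23890 CPM in generation 7, so generation 10 was at the level of the groups other than generations 1 and 2.

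*rme-2*, the receptor by which oocytes take up yolk, was at 332, 305 and 274 CPM in generation 1 and at 1251, 1291 and 1259 CPM in generation 10, a log2 fold change of 1.95 ± 0.07 (edgeR adjusted p = 2.23e-12). *cpg-1* and *cpg-3*, which encode chondroitin proteoglycans of the eggshell, rose by 2.11 ± 0.08 and 2.42 ± 0.10 on the log2 scale. *egg-1*, an oocyte surface protein needed for fertilization, went from 171, 161 and 139 CPM to 672, 703 and 627 CPM. *cbd-1*, which anchors the eggshell's outer layer, *oma-1* and *oma-2*, which drive oocyte maturation, and *puf-5*, a translational repressor of oocyte growth, rose by 1.95, 1.27, 1.95 and 1.81. The opposite-strand neighbours of *cpg-3* and *egg-1* overlap them, and the library kit marks strand.

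Vitellogenins, the yolk proteins that the intestine secretes, did not move as a block. *vit-4* rose most, from 336, 249 and 128 CPM to 7591, 7363 and 9616 CPM (log2 fold change 4.99 ± 0.26, edgeR adjusted p = 1.27e-10). *vit-1* rose from 128, 139 and 80.2 CPM to 1418, 1372 and 1846 CPM, *vit-3* by 2.55 ± 0.19 on the log2 scale and *vit-6* from 10600, 8027 and 6067 CPM to 19400, 18510 and 22560 CPM. The most abundant yolk mRNA in generation 1, *vit-2*, went the other way without being called, from 27850, 24730 and 20570 CPM to 17350, 15530 and 19650 CPM, a log2 fold change of -0.59 ± 0.10. *vit-5* overlapped between the generations, at 8537 to 11130 CPM and 11040 to 13720 CPM. In all, 4 of 6 were higher (66.7%, against 16.6% of all genes) and none was lower. Reads of these near-identical genes may be split among them by the counting.

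Of 25 germ granule genes 4 were higher (16%, near the 16.6% of all genes) and 1 was lower. The 4 were *meg-1*, *meg-2*, *meg-3* and *meg-4*, disordered proteins of embryonic P granules made in the oocyte. *meg-1* went from 37.2, 36.4 and 29.1 CPM to 220, 249 and 208 CPM and *meg-4* from 8.92, 8.79 and 5.86 CPM to 67.1, 68.5 and 65.6 CPM, with log2 fold changes of 2.60 ± 0.09 and 2.98 ± 0.11. *nos-2*, a Nanos homolog loaded into the embryo, rose by 2.29 ± 0.07 from 46.5, 43.4 and 37.8 CPM to 221, 233 and 223 CPM. The adult germline as a whole moved far less. The 10 germline markers summed to 3422 to 3662 CPM in generation 1 and to 4088 to 4493 CPM in generation 10, with 8643 CPM at 20°C. Among them *mex-5*, which patterns the embryo, rose by 1.33 ± 0.06, *syp-1*, a synaptonemal complex gene, fell with a log2 fold change of -1.05 ± 0.07 (-0.88, under the 2-fold limit, with library size only), and *gld-1*, a translational repressor of the meiotic germline, was at 681 to 711 CPM and 670 to 784 CPM. Of 39 meiosis genes *syp-1* alone was called.

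Major sperm protein genes rose from low levels. Of 30 major sperm protein genes, the motility proteins of nematode sperm, 21 were higher and none lower (70% against 16.6% of all genes). Their summed level was 42.3, 37.1 and 42.4 CPM in generation 1 and 99.4, 86.9 and 144 CPM in generation 10. The mean sum was 89.4 CPM at 20°C, 93.9 CPM in generation 2 and 49.9 CPM in generation 7. With 1 library left out, 15 to 24 of these genes were higher. *msp-38*, for example, went from 1.1, 0.764 and 1.02 CPM to 3.46, 2.92 and 4.97 CPM. These genes are near-identical copies, so the split of reads among them is uncertain. Of 52 other sperm genes 16 were higher (30.8%) and 6 lower (11.5%, against 14.5% of all genes). Without replicate 3 of generation 10 only 8 were higher. *spe-9*, a sperm surface protein needed to fertilize, fell from 0.472, 0.828 and 1.02 CPM to 0.121, 0.0504 and 0.184 CPM. *alg-3* and *alg-4*, Argonautes of the sperm-making germline, rose with the former, by 1.57 ± 0.24 and 1.60 ± 0.35 on the log2 scale.

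Of 19 Argonautes, the proteins that carry small RNAs, 5 were higher (26.3%, against 16.6% of all genes) and 1 was lower. The 5 were *alg-4*, *alg-3*, *nrde-3*, *alg-2* and *wago-10*, which overlapped between the generations, and the lower gene was *ppw-2*. *nrde-3*, which takes small RNAs into nuclei of somatic cells, went from 19.1, 14.7 and 15 CPM to 53.3, 50.5 and 50.7 CPM. *ppw-2* fell from 326, 304 and 301 CPM to 156, 145 and 148 CPM, and its call was lost with library size only. The piRNA-binding *prg-1* was at 284 to 304 CPM and 318 to 335 CPM. Of 28 genes of RNA interference amplification only *eri-6* was called, lower at 11, 10.9 and 10.6 CPM against 20.6, 20.3 and 20.2 CPM, and this call was also lost with library size only. None of 22 nuclear RNA interference and heterochromatin genes was called, and 2 were higher with library size only. *simr-1* itself was at 64.2, 66.6 and 64 CPM in generation 1 and at 108, 122 and 113 CPM in generation 10, below the 2-fold limit.

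**Figure D3:**
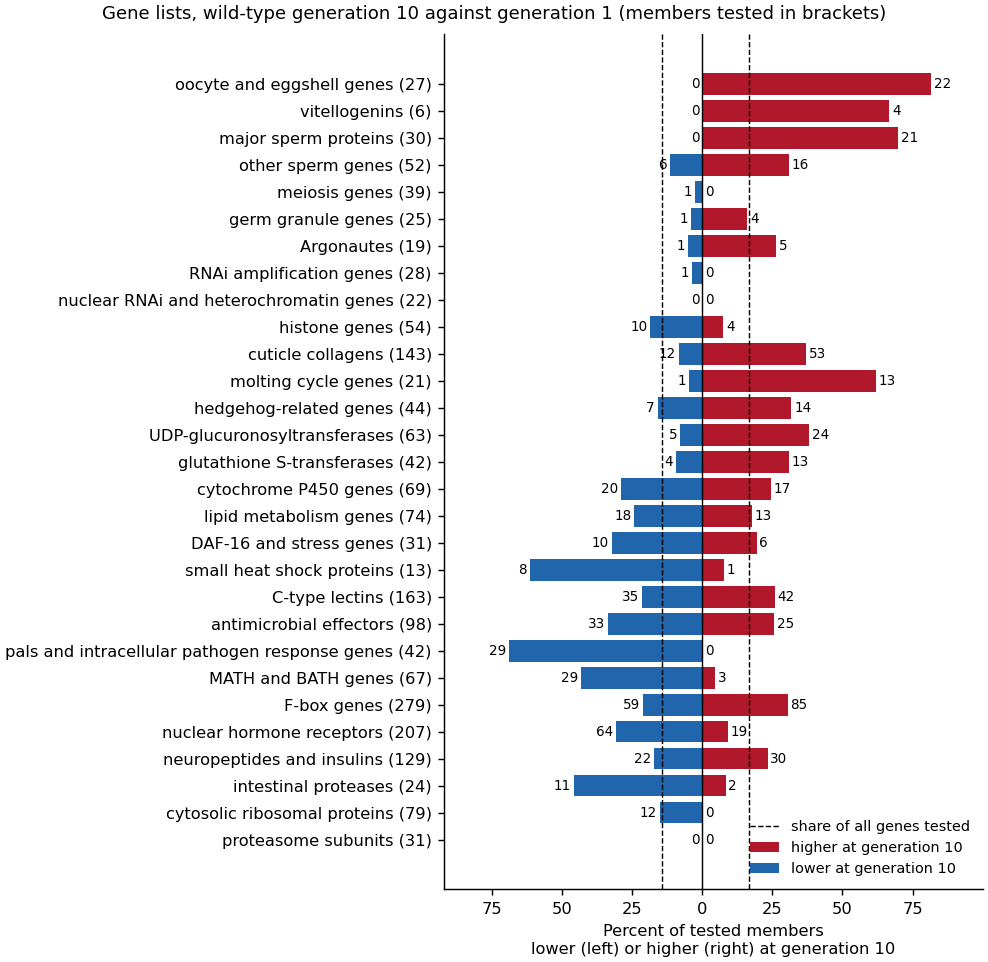
Percent of the tested members of each gene list that were called lower (left) or higher (right) at generation 10, with the number of calls at the bar ends, the number of members tested in brackets and dashed lines at the shares of all genes (14.5% and 16.6%). Oocyte and eggshell genes, sperm proteins, vitellogenins and molting cycle genes reached furthest to the right, and pals genes, small heat shock proteins and intestinal proteases furthest to the left.

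Cuticle collagens rose more often than they fell. Of 143 collagens 53 were higher (37.1%) and 12 lower (8.39%), against 16.6% and 14.5% of all genes. Their sum went from 4641, 4212 and 3851 CPM to 12130, 12080 and 15110 CPM, and was 11900 CPM at 20°C, 13960 CPM in generation 2 and 13970 CPM in generation 7, so here generation 1 was alone in being low. *col-101*, picked after its values were seen, was at 116, 102 and 67.9 CPM in generation 1 and at 1306, 1359 and 1646 CPM in generation 10. 2 collagens of low level are given as examples. *sqt-2* went from 0.157, 0.0637 and 0.179 CPM to 6.86, 9.52 and 6.63 CPM (log2 fold change 5.64 ± 0.32), and *rol-6*, which shapes the body when mutated, from 0.105, 0.191 and 0.12 CPM to 4.37, 7.61 and 5.28 CPM.

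Of 21 genes that cycle with the larval molts 13 were higher (61.9%) and 1 was lower (4.76%), against 16.6% and 14.5% of all genes. Their summed level nonetheless fell, from 358, 351 and 358 CPM in generation 1 to 303, 306 and 324 CPM in generation 10. *lin-42*, the Period homolog that times molts, went from 0.472, 0.701 and 1.38 CPM to 6.56, 6.65 and 7 CPM, and *mlt-11*, a protease inhibitor of the molt, from 2.73, 1.78 and 1.31 CPM to 13.8, 15.2 and 17 CPM. *nas-37*, the metalloprotease that opens the old cuticle, fell from 234, 238 and 240 CPM to 40.7, 35 and 42.8 CPM against the direction of the list. Of 44 hedgehog-related genes, many of which are made in the hypodermis, 14 were higher (31.8%) and 7 lower (15.9%, near that of all genes).

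Among markers of other stages and tissues, those of pharynx muscle and the zygotic embryo rose with these genes. Others did not: 5 of 10 body muscle and 3 of 6 intestine markers were lower and none higher. Of 9 male markers 1 was higher and 1 lower. All 4 pharynx muscle markers were higher, and *myo-2*, a pharyngeal myosin, went from 1.63, 1.91 and 1.2 CPM to 13.4, 14 and 27.8 CPM. Their sum was 6.87 to 7.65 CPM in generation 1, 42.0 to 78.2 CPM in generation 10 and 8.26 to 10.3 CPM on average in the other wild-type groups. Of 17 genes of the zygotic embryo 10 were higher (58.8%, against 16.6% of all genes) and none lower. Their sums were 20.6 to 27 CPM in generation 1 and 51.4 to 70.9 CPM in generation 10. The mean sum was 13.07 CPM at 20°C, 66.28 CPM in generation 2 and 24.05 CPM in generation 7. Generation 2 was thus at the level of generation 10. The embryo's *pes-10* went from 0.734, 0.573 and 0.299 CPM to 6.26, 4.89 and 4.05 CPM. The part of these markers in the collagen, molting and oocyte results was not tested.

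Of 24 proteases and related gut enzymes 11 were lower (45.8%, against 14.5% of all genes), 2 were higher and 11 were not called. Their sum went from 39980, 38690 and 34150 CPM to 13710, 11960 and 13320 CPM. The cathepsin B-like *cpr-1* fell from 3498, 3629 and 2853 CPM to 690, 486 and 538 CPM (log2 fold change -2.66 ± 0.12, edgeR adjusted p = 2.6e-11). The aspartyl proteases *asp-6*, *asp-1* and *asp-3* fell with log2 fold changes of -2.52, -2.23 and -1.81, *asp-6* from 8941, 8796 and 8080 CPM to 1778, 1445 and 1653 CPM. *cpr-5* fell from 568, 524 and 489 CPM to 88.3, 63.3 and 74.7 CPM. The intestinal transcription factors *elt-2* and *elt-7* fell too, *elt-2* from 21.1, 21.3 and 20.3 CPM to 9.66, 9.52 and 10.4 CPM. Other gut genes kept their level to within 2-fold, as the gut esterase *ges-1* (68.7 to 79.9 and 56.9 to 63.4 CPM) and the gut actin *act-5* (130 to 155 and 182 to 215 CPM) show.

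The start region of *cpr-1* is shown for the TGATAA matches that genes which fell held more often than all genes, with TGATAA in capitals.
cpr-1, chrV:11975301-11975600, plus strand: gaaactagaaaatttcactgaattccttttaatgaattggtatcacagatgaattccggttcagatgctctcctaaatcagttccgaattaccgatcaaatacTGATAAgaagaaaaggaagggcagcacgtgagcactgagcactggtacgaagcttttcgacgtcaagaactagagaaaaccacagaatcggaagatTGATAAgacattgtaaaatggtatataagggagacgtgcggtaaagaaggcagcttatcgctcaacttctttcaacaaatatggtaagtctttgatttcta
The run holds 2 matches, both before the annotated start.

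Of 74 lipid metabolism genes 13 were higher (17.6%, near the 16.6% of all genes) and 18 lower (24.3% against 14.5%). The lysosomal lipases *lipl-3* and *lipl-1*, which fasting induces, fell from 154, 142 and 115 CPM to 6.62, 6.8 and 6.08 CPM and from 419, 388 and 321 CPM to 42.7, 26.4 and 30 CPM. *lipl-3* was at 0.316 CPM at 20°C and between 164 and 199 CPM in generation 2. *acs-2*, an acyl-CoA synthetase for fat burning that fasting also induces, fell from 261, 321 and 272 CPM to 13.8, 12.6 and 16.9 CPM (log2 fold change -4.42 ± 0.11, edgeR adjusted p = 1.36e-13). Unlike the lipases it was low in every generation 2 library, at 10, 12 and 31.8 CPM, so that its high level was seen in generation 1 only. The stearoyl-CoA desaturase *fat-6* fell from 1677, 1673 and 1686 CPM to 577, 488 and 576 CPM, and *nhr-80*, a nuclear receptor that regulates it, with a log2 fold change of -1.64 ± 0.09.

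Small heat shock proteins, chaperones that hold unfolded proteins, mostly fell, with 8 of 13 lower (61.5%, against 14.5% of all genes) and 1 higher. Their summed level nonetheless rose, from 1709, 1636 and 1620 CPM in generation 1 to 2170, 2016 and 1820 CPM in generation 10. *hsp-12.3* fell from 108, 110 and 117 CPM to 3.64, 2.37 and 1.53 CPM (log2 fold change -5.58 ± 0.13, edgeR adjusted p = 1.03e-13), and its neighbour *hsp-12.6* from 12.4, 14.1 and 21.4 CPM to 0.486, 0.302 and 0.43 CPM. Both were low at 20°C (2 and 0.534 CPM) and in generation 7. The classical heat-induced genes fell less and stayed above their level at 20°C: *hsp-16.2* went from 19.5, 14.3 and 18.6 CPM to 8.32, 7.91 and 8.53 CPM and was at 0.304 CPM at 20°C, and *hsp-16.48* had a log2 fold change of -1.64 ± 0.07, ended at 44.1 to 48.1 CPM and was at 4.82 CPM at 20°C. The hsp-16 genes exist as near-identical pairs whose reads may be split. Of 51 HSP70, HSP90 and co-chaperone genes 2 were higher (3.92%) and 1 was lower (1.96%), against 16.6% and 14.5% of all genes. *hsp-3*, a chaperone of the endoplasmic reticulum, rose (165, 143 and 139 to 395, 396 and 422 CPM), and the inducible HSP70 F44E5.4 fell.

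The start region of *hsp-12.3* is given since it holds GTAAACA, in capitals, more than once, while 4.69% of all RefSeq gene windows hold it at all.
hsp-12.3, chrIV:9445265-9445564, minus strand: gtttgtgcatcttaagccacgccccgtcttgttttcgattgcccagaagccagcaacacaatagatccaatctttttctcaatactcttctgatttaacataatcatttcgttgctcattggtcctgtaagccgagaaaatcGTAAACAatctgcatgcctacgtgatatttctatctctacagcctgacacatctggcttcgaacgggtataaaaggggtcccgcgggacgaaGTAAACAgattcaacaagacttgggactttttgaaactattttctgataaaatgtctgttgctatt
The 2 matches lie before the annotated start. The longevity factor DAF-16 binds this sequence. Of 31 DAF-16 and stress genes 6 were higher (19.4%, near the 16.6% of all genes) and 10 lower (32.3% against 14.5%). Members thus moved both ways, with only the falls well above the share of all genes. *gpdh-1*, which makes glycerol under osmotic stress, rose from 0.787, 0.509 and 0.598 CPM to 20, 20.8 and 28.1 CPM, and the metallothionein *mtl-1* fell from 155, 173 and 167 CPM to 38.5, 22 and 27 CPM. *sod-3*, a textbook DAF-16 target, was at 7.39 to 8.79 CPM and 8.11 to 9.47 CPM, and *daf-16* itself was within 2-fold.

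Genes of defence moved both ways, with falls in the pathogen response genes. Of 42 pals and other intracellular pathogen response genes, which viruses and microsporidia induce, 29 were lower (69% against 14.5% of all genes) and none higher, or 1 higher with library size only. *pals-15* went from 0.944, 0.891 and 0.717 CPM to no count, at least 14.9-fold lower, and *pals-19*, which overlaps *pals-18* on its own strand, from 9.28, 9.74 and 10.3 CPM to 1.03, 0.756 and 1.04 CPM. Of 67 MATH and BATH genes, some of which are substrate adaptors of ubiquitin ligases, 29 were lower (43.3%) and 3 higher (4.48%). *math-38* fell from 67.3, 64.2 and 57.6 CPM to 5.53, 4.13 and 3.87 CPM. Of 98 antimicrobial effectors 33 were lower (33.7%) and 25 higher (25.5%), against 14.5% and 16.6% of all genes, and 28 were lower and 30 higher with library size only. Their sums were 20560 to 23960 CPM and 11210 to 12750 CPM. *fmo-2*, a flavin monooxygenase, fell from 81.9, 86.4 and 96.8 CPM to 4.8, 2.07 and 3.19 CPM, while the lysozyme *lys-7*, just past the 2-fold limit, rose from 534, 489 and 420 CPM to 1012, 973 and 1182 CPM. C-type lectins, with 42 of 163 higher (25.8%) and 35 lower (21.5%), held both. Among them *clec-60* fell from 99, 101 and 86 CPM to 6.8, 2.32 and 2.46 CPM.

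F-box genes, substrate adaptors of ubiquitin ligases and a large family in nematodes, rose more often than they fell. Of 279, 85 were higher (30.5%) and 59 lower (21.1%), against 16.6% and 14.5% of all genes. *fbxb-97* went from 0.944, 0.637 and 0.717 CPM to 29.8, 37.5 and 21.6 CPM (log2 fold change 5.13 ± 0.24), was at 2.25 CPM at 20°C and was already high in *simr-1* generation 1, at 55.1 CPM. Detoxification genes that conjugate foreign molecules also rose more often than they fell. Among 63 UDP-glucuronosyltransferases 24 were higher (38.1%) and 5 lower (7.94%). Among 42 glutathione S-transferases 13 were higher (31%) and 4 lower (9.52%). *ugt-18* went against its family, falling from 114, 97.4 and 116 CPM to 6.74, 2.52 and 2.64 CPM. Of 69 P450 genes 17 were higher (24.6%) and 20 lower (29%), or 19 and 16 with library size only. Of 207 nuclear hormone receptors, a family much enlarged in nematodes, 64 were lower (30.9%) and 19 higher (9.18%).

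Ribosomal protein genes, among the most highly expressed, had lower levels, most within 2-fold. Of 79 cytosolic ribosomal proteins 12 were lower (15.2%, near the 14.5% of all genes) and none higher, with a median log2 fold change of -0.89. Their sum went from 106400, 101200 and 104400 CPM to 61990, 60200 and 59090 CPM. At 20°C it was 123000 CPM and in generations 2 and 7 it was 110800 and 104200 CPM, so here generation 10 was the group apart. With library size only, 4 were lower. Proteasome subunits, with a median of 0.13, had no call among 31. Of 10 body wall muscle markers 5 were lower and 5 were not called, with sums of 2842 to 3576 CPM and 1258 to 1463 CPM, and *unc-54*, the major muscle myosin, went from 1129, 980 and 869 CPM to 308, 279 and 333 CPM. Histone genes were mixed, with 10 of 54 lower (18.5% against 14.5% of all genes) and 4 higher (7.41% against 16.6%). With library size only or without replicate 3 of generation 10, 8 were higher, and without replicate 1 of generation 1, 7. Their poly(A)-selected reads are not a measure of total histone mRNA.

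Of 129 neuropeptides and insulins 30 were higher (23.3%) and 22 lower (17.1%), against 16.6% and 14.5% of all genes. *daf-28*, an insulin that promotes growth, went from 0.0524, 0 and 0.12 CPM to 1.22, 0.857 and 2.09 CPM, and *ins-26*, another insulin, from 0.105, 0 and 0 CPM to 1.76, 1.31 and 1.72 CPM. *nlp-39* fell from 24.6, 29.1 and 30.6 CPM to 2.55, 1.56 and 2.58 CPM. Of 237 chemoreceptors that could be tested (of 1309 names) 40 were higher (16.9%, near that of all genes) and 57 lower (24.1%), and leaving out replicate 1 of generation 10 left 24 higher. Transthyretin-like genes, a nematode family of secreted proteins, had 8 of 51 higher (15.7%, near that of all genes) and 14 lower (27.5%), or 9 of each with library size only.

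The calls were spread unevenly over the chromosomes. On the X 24.4% of 2373 tested genes were higher and 16.7% lower. On chromosomes I and III 11.2% and 10.9% were higher, and on II, IV and V between 17.4% and 17.7%. Chromosome V had the highest share of lower genes, 18.2%. As background, many genes of the germline lie on the autosomes, and the X is largely silent in germ cells, while chemoreceptor genes lie largely on V. Among the lists described, all vitellogenins but *vit-6* lie on the X, as do all 4 *meg* genes.

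**Figure D4:**
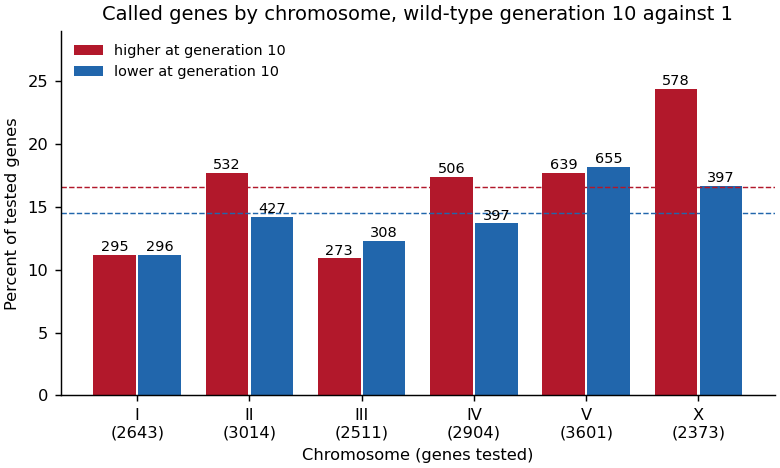
Percent of the tested genes of each chromosome that were called higher (red) or lower (blue) at generation 10, with the numbers of genes called above the bars, of genes tested under the axis, and dashed lines at the shares of all genes. The X reached 24.4% higher, and I and III lay below the dashed lines in both directions.

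The same generations were compared in *simr-1*, in libraries that share no sample with the wild-type ones. There 1941 of 15917 genes were higher (12.2%) and 250 were lower (1.57%). Of 2639 genes that rose in wild-type and were tested in both, 1015 rose in *simr-1* (38.5%) and 3 fell. Of 2299 that fell in wild-type, 201 fell in *simr-1* (8.74%) and 70 rose. The median log2 fold change in *simr-1* was 0.85 over the former and -0.32 over the latter, against 0.02 over all genes. Over the 15805 genes tested in both, 12.1% rose and 1.57% fell in *simr-1*, so both shares in the same direction were above those of all genes.

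The gene groups differed in this respect. None of the 27 oocyte and eggshell genes was called in *simr-1*, where *rme-2* was at 1420 and 1394 CPM on average, and for 23 of them the change from generation 1 to generation 10 was lower in *simr-1* than in wild-type by the interaction test (6.42% of all 17683 genes). For *rme-2* that difference was -1.98 on the log2 scale. Of the pals list 29 of 42 differed by the same test (12.2% of all genes), all with a smaller fall or a rise in *simr-1*. Major sperm proteins rose in both, with 23 of 30 higher in *simr-1* and none that differed. Zygotic embryo genes likewise rose in both (10 of 15 in *simr-1*), and of the 4 pharynx markers 3 rose in *simr-1* too, where the rise of 2 was smaller by the interaction test. Of 116 collagens tested in *simr-1*, 32 were higher and 1 was lower.

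**Figure D5:**
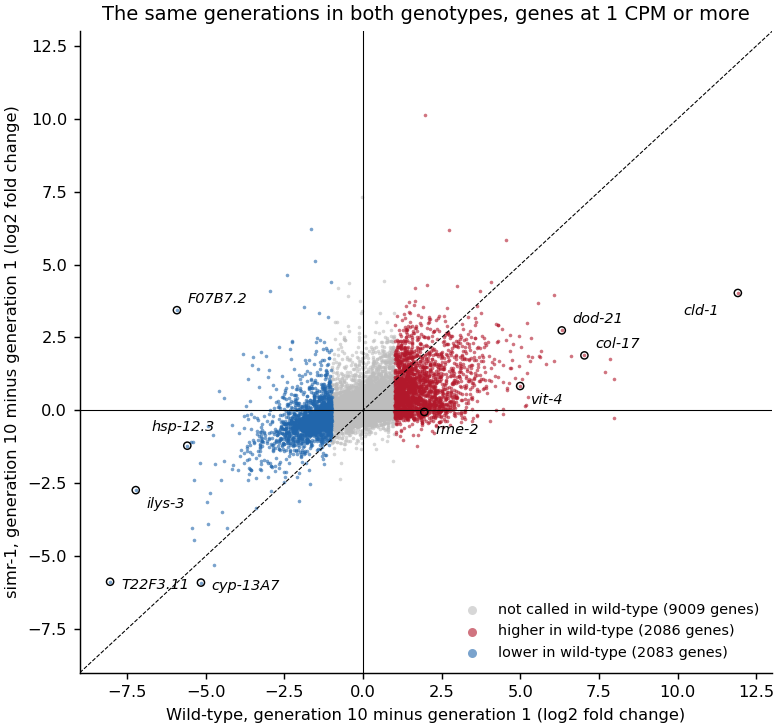
Log2 fold change from generation 1 to generation 10 in wild-type (horizontal) and in *simr-1* (vertical) for genes at 1 CPM or more in either wild-type group, 1 point per gene, with a dashed line of equal change. The median change in *simr-1* was 0.85 over the genes that rose in wild-type and -0.32 over those that fell, and F07B7.2 moved in opposite directions; *cld-1*, with no count in wild-type generation 1, is placed by the fit's prior count.

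Generation 7 was compared with generation 2 in wild-type libraries that the main comparison did not use. Of 17178 genes 2049 were higher (11.9%) and 4786 lower (27.9%). With library size only, 1294 were higher, so that 18.8% and not 30% of calls were rises, and the median of all genes moved from -0.31 to -0.48. Of 2478 genes that fell from generation 1 to 10 and were tested in both, 1815 fell here (73.2%) and 15 rose. Of 2726 genes that rose, 626 rose (23%) and 498 fell. Oocyte and eggshell genes repeated their rise, with 24 of 27 higher. Here, however, other germline lists rose as well, with no member lower. Higher were 23 of 39 meiosis genes, 8 of 10 germline markers, 16 of 25 germ granule genes and 13 of 28 RNA interference amplification genes. In the main comparison 0, 1, 4 and 0 of these were higher, so the rise from generation 2 to 7 was not particular to oocyte genes. The fall of the pals list (33 of 42) and of intestinal proteases (15 of 23) recurred. The rise of major sperm proteins (9 of 30 lower, none higher), of pharynx markers (none of 4 called) and of the zygotic embryo genes (1 of 17 higher, 9 lower) did not recur.

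Small RNAs of the same generations, from 2 wild-type libraries each, were read at the genes whose mRNA was called. Over 14031 genes 850 had more small RNAs at generation 10 (6.06%) and 1138 fewer (8.11%). With library size only the balance turned, with 1101 more and 1024 fewer. Of the 11496 genes tested for both, 4.97% had more and 7.49% fewer. Genes whose mRNA rose had more in 102 (6.66%) and fewer in 160 (10.5%) of 1531 cases. Genes whose mRNA fell had more in 81 (5.89%, near that of all genes) and fewer in 221 (16.1%) of 1375 cases. *fbxb-97* had opposite changes, with small RNAs at 451 and 137 CPM on average beside its rise in mRNA. At *vit-4* the averages were 43.6 and 164 CPM, at *ilys-3* 54.1 and 9.54 CPM and at *cpr-1* 40.4 and 2.02 CPM (generation 1 and generation 10 in that order), the direction of the mRNA in each. Since these counts did not use strand, sense fragments of mRNA and antisense small RNAs cannot be told apart. Of the ribosomal protein genes, whose mRNA was lower, 57 of 79 had more small RNAs and none fewer.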

How the data were processed

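The authors trimmed reads with Cutadapt and processed them with HISAT2 and Salmon on the *C. elegans* genome, and deposited 1 table per mRNA library with a name and an expected count. Which of these tools gave the values is not given in the sources used here. Between 95.4% and 97.2% of values were whole, so these estimated counts were rounded after the 1066 repeated names had been summed, leaving 45904 names, of which 45648 paired with a gene ID. The deposited small RNA expected counts came from the authors' Bowtie2 and featureCounts steps, which split shared reads and did not use strand. Libraries were grouped by the labels. Names with at least 10 counts over the compared libraries, and for small RNAs a mean of at least 10 CPM in either group, were tested with edgeR 4.0.16 (R 4.3.3) in a quasi-likelihood model with TMM factors, fitted to the compared groups only, and called at an adjusted p (Benjamini-Hochberg) up to 0.05 where the fold was 2 or more. The study itself used DESeq2, which was tried as an alternative (DESeq2 1.42.0), as were other scalings, filters, a fit to all 30 libraries, a replicate block and leaving out each replicate. Only the edgeR test of the main wild-type comparison was checked on simulated counts. There a small share of genes was changed, with rises and falls in equal number, so the effect of scaling was not probed. The other tests were not simulated. Promoter windows (250 bases before and 50 after the start) were RefSeq WBcel235, and figures were drawn with matplotlib 3.10.9.

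Placement between generations used log2 of CPM plus 0.5, for genes that differed by at least 0.5 on that scale. Genes named were the 12 largest rises and 12 largest falls among called genes that reached 1 CPM on average in the higher group and no overlap of the groups, up to 3 called members of each list with the largest change, and members of lists of up to 10. Others (*dod-24*, C32H11.4, *dct-19*, *rme-2*, *cbd-1*, *oma-1*, *oma-2*, *puf-5*, *meg-3*, *alg-2*, *wago-10*, *ppw-2*, *prg-1*, *simr-1*, *asp-3*, *asp-6*, *col-101*, *fat-6*, *nhr-80*, *hsp-16.2*, *hsp-16.48*, *mtl-1*, *sod-3*, *daf-16* and *lys-7*) were chosen after their values were seen. The members and gene lists were chosen with earlier results of these data known. With 3 libraries a group, p-values measure the spread between those libraries.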

Additional observations from a re-analysis of the deposited data

Results flagged for a closer look

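The change from generation 1 to generation 10 differed between genotypes, by edgeR's interaction test over 12 libraries, for 2154 genes with a higher value in *simr-1* than in wild-type and 1136 with a lower one, of 17683 tested (12.2% and 6.42%). The genes named next were picked for their wild-type change, and the test uses the same wild-type libraries. How many differed, and in which direction, therefore follows in part from that choice. Of the 12 genes with the largest rises in wild-type, 10 differed and Y48E1B.8 and ZK1025.3 did not pass. The log2 difference (*simr-1* minus wild-type) was -7.75 for *cld-1*, -8.33 for *col-41*, -5.73 for *tba-8*, -9.14 for K08F4.13, -6.75 for Y105C5B.3, -5.98 for *grd-4*, -6.25 for *oac-32*, -5.11 for *col-17*, -4.67 for *srlf-35* and -3.55 for *dod-21*. The first 7 named had no count in wild-type generation 1, so their sizes depend on the prior count of the fit. Of the 12 with the largest falls 8 differed, and T22F3.11, W07B8.4, C23G10.11 and *cyp-13A7* did not pass. The difference was 4.5 for *ilys-3*, 9.36 for F07B7.2, 6.27 for *rabr-4*, 4.39 for *hsp-12.3*, 4.37 for F40G12.5, 4.32 for *hsp-12.6*, 3.02 for *clec-70* and 3.37 for Y43F8C.18.

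Y43F8C.18 overlaps *srv-3* on the opposite strand.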

How the results depend on the processing

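No named gene changed direction, but the balance of higher and lower counts turned in several cases. Of 1568 alternative values of named genes, 1538 kept direction and side of the threshold and 30, in 12 genes, lost the call. Without the fold limit 5589 genes were higher and 5688 lower, and 2107 and 2136 at a mean of at least 1 CPM, each with more lower than higher genes. The *simr-1* count of higher genes was 1215 with edgeR's filterByExpr (1941 in the fit reported), and that for generation 7 against 2 was 1294 with library size only (2049). Small RNA counts were 1101 higher and 1024 lower with library size only (850 and 1138), antimicrobial effectors 30 and 28 (25 and 33) and P450 genes 19 and 16 (17 and 20). The causes were not tested. DESeq2 called 2462 higher and 2271 lower, of which 2432 and 2270 were also called by edgeR. Library size only gave 3430 and 1937, and filterByExpr 2309 and 2119. Leaving out 1 replicate gave 2575 to 2800 higher and 2345 to 2491 lower genes. Same-numbered libraries of the 2 generations did not deviate together (r of -0.109, -0.15 and -0.245 across 8226 genes, which are not independent), so the numbers were not treated as pairs, and a replicate block gave 2786 higher and 2464 lower. Genes under 1 CPM were measured on few counts, and values near 0 carry counting error that limits their folds.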
